A study of Homo sapiens with 6 samples.

Results

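The MYC, MAX and MXD network is a set of transcription factor genes around MAX, a dimerisation partner for which several members compete, with a parallel branch around MLX. Here 9 of its members were followed among the 27672 genes of the expression table: MYC, MYCN, MAX, MXD1, MXD3, MXD4, MXI1, MNT and MLX. They were picked by gene symbol, with earlier results of these data known, and all 9 symbols were found and passed the filter on low counts. Polyadenylated RNA was sequenced from undifferentiated human embryonic stem cells (hESCs, day 0), with 3 replicates, and from NMP-L cells at day 3, also with 3 replicates, which resemble the neuromesodermal progenitors of the caudal embryo. Both came from H9, a single hESC line with no genetic change named in the labels. Per the labels, hESCs were untreated and were grown without feeders on fibronectin in DEF medium, to which bFGF was added at 30 ng/ml and Noggin at 10 ng/ml, an inhibitor of BMP signalling, whereas the study's methods name another medium and coating. NMP-L cells had spent 3 days in N2/B27 medium that held bFGF at 20 ng/ml and CHIR99021, a GSK3 inhibitor that activates Wnt signalling, at 3 µM. The study's methods also name Noggin and SB431542, an inhibitor of TGFβ signalling, from day 2 to day 4, which the labels of these libraries do not mention. No sort or gate was described, so each library is an average over all cells of its culture, and the effects of medium, time and CHIR99021 cannot be told apart. The labels call the replicates biological, but no source says that they were separate cultures, so p-values measure the spread between these libraries.

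Proteins of this network carry a basic helix-loop-helix leucine zipper. MYC and its paralogues MYCN and MYCL bind DNA only as heterodimers with MAX, preferring the E-box CACGTG, and recruit coactivators to genes of growth, ribosome production and metabolism. MXD proteins, MXI1 and MNT also pair with MAX but recruit SIN3 corepressors, so that they oppose MYC at shared sites. MLX partners some MXD proteins, MNT and the glucose-sensing factors MLXIP and MLXIPL in a parallel branch. In pluripotent cells MYC factors are known for sustaining self-renewal and rapid growth, and MYCN is also known from the progenitors of the early nervous system. Transcript levels do not report the amount of MYC protein, which turns over within minutes.

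Promoter sequences are shown because the members bind, as dimers, an element that some of them carry themselves. RefSeq windows on GRCh38.p14, from 250 bases before to 50 bases after each gene's start, were available for 8 of the 9 members, in 11 windows. MYC was not among them. The E-box CACGTG, which reads the same on both strands, lay in the windows of MXD4, MNT and MLX, that is in 37.5% of the 8 genes. It lay in 8.77% of all 27305 genes with a window, tested for expression or not, and in 7.26% of all 35116 windows. Among the coactivators listed below its share was also 37.5%. An E2F-type motif, TTT followed by 2 letters that are each C or G and then CGC, searched on both strands, was found in 1 member, MYCN, and in 3.99% of all genes. No E2F-type motif was found in the windows of MXD4, MNT or MLX, and no E-box in that of MYCN. In the stretches below, read 5′ to 3′ on the gene's strand, capitals mark the motif or, for MYCN, the run covered by both matches. The MYCN stretch ends at the base before the gene's start, at chr2:15940300-15940549 on the plus strand, and it holds 2 overlapping matches, 1 on the gene's strand that begins 176 bases before that start and 1 on the opposite strand that begins 172 bases before it. The MXD4 stretch is chr4:2262315-2262359 on the minus strand, with the motif 238 bases before the start. The MNT stretch is chr17:2401221-2401280 on the minus strand, with the motif 193 bases before the start, and the MLX stretch is chr17:42567023-42567082 on the plus strand, with the motif 50 bases before the start. These matches describe letters only, and no binding was measured in these libraries.
MYCN: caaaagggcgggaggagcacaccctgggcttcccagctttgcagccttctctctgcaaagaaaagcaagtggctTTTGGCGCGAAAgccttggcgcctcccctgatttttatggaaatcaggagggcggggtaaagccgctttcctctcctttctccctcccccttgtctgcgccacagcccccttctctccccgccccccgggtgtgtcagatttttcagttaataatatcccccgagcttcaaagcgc
MXD4: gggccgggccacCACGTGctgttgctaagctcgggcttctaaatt
MNT: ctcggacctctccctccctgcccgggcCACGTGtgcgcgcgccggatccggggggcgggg
MLX: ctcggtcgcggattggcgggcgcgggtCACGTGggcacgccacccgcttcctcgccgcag

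Library totals were between 19454543 and 19744142 expected counts in hESCs and between 20687062 and 23036426 in NMP-L cells, so depth differed with condition. Libraries of a condition were compared by the chi-square of their counts per gene. For hESC replicate 1 it was 17.6 and 9.85 against replicates 2 and 3, which gave 6.53 between them. For NMP-L replicate 3 it was 15.4 and 14.2 against replicates 1 and 2, which gave 8.44 between them. The hESC and NMP marker lists moved as the labels imply. Of 5 hESC markers, 4 were lower in NMP-L cells, among them NANOG by 2.59 on the log2 scale, and the 5 summed to between 3680 and 3935 CPM (counts scaled to the library total after TMM adjustment) in hESCs and between 2151 and 2254 CPM in NMP-L cells. Of 6 NMP markers, 5 were higher. CDX2, a caudal homeobox gene, had 0, 1 and 0 counts at day 0, against 522, 326 and 607 at day 3. SOX2, which is shared by both states and stands in both lists, did not pass the test (log2 fold change 0.06, edgeR adjusted p = 0.53). Endoderm markers summed to at most 1.38 CPM in any library, and none of these 5 genes passed the filter. Paraxial mesoderm markers summed to between 9.18 and 12.3 CPM in hESCs and between 3.34 and 4.35 CPM in NMP-L cells, with MEOX1 at no more than 1 count in any library and MSGN1 at 7 counts or fewer. Neural markers summed to between 36.1 and 41.8 CPM in hESCs and between 24.5 and 26.9 CPM in NMP-L cells, with PAX6 at 8 counts or fewer throughout. Of the paraxial mesoderm markers, TBX6 and TCF15 passed as lower in NMP-L cells (log2 fold changes −1.24 and −1.95). Of the neural markers, ELAVL3 and SOX10 passed as lower (−1.85 and −1.08), and DCX did not pass.

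The activators MYC and MYCN both fell steeply, 2 of the 5 MAX-binding antagonists fell, and MAX itself rose slightly. In all, 5 of the 9 members passed the test (edgeR's quasi-likelihood test, adjusted p under 0.05, with Benjamini-Hochberg adjustment over 15517 genes), 4 of them lower in NMP-L cells and 1 higher. That is 55.6% of the members, near the background of 55.8% among all genes tested. Among all genes 26.7% passed as lower and 29.1% as higher, beside 44.4% of the members as lower. MYC, MYCN and MXD4 fell at least 2-fold, that is 3 members of 9, beside 9.18% of all genes. The median log2 fold change was −0.48 over the members and 0.03 over all genes tested. For 6 members the libraries of the conditions did not overlap in CPM, beside 61.6% of all genes. With 3 libraries a condition, the smallest p that an exact permutation test can give is 0.1.

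**Figure D1:**
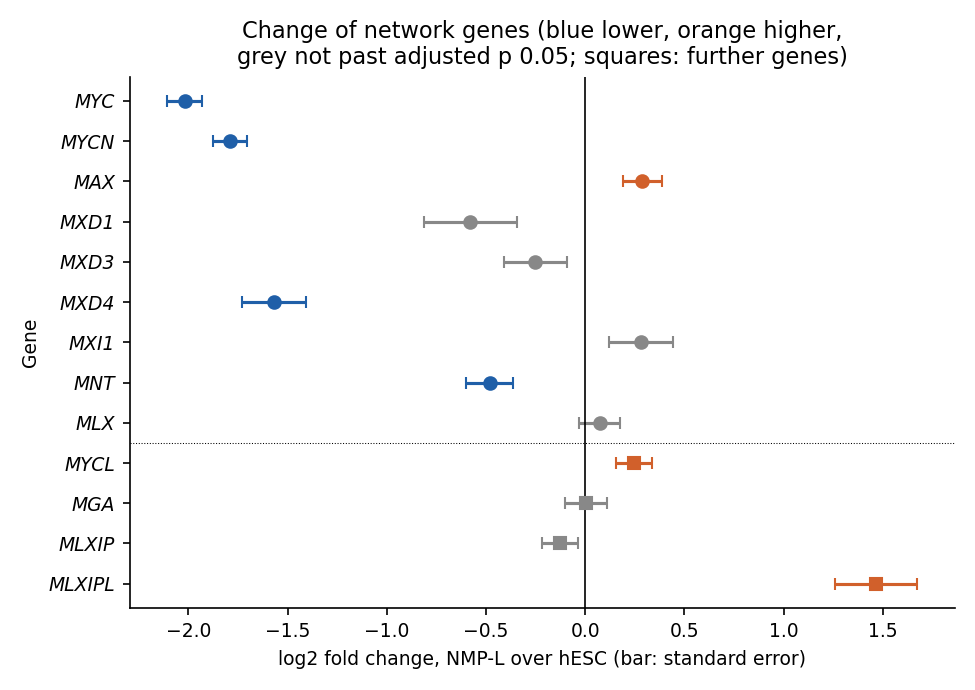
Log2 fold change of each member (circles) and of 4 further network genes (squares) in NMP-L cells relative to hESCs, with bars of 1 standard error from edgeR. MYC, MYCN and MXD4 lie below −1, MNT at −0.48, and MAX just above 0 at 0.29.

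MYC is the founding member of the family and a general amplifier of growth genes. It lies at chr8:128747680-128755197 on the plus strand of GRCh37, the assembly equivalent to the hg19 named by the submitters, and is protein coding. The 3 hESC libraries held 1163, 1226 and 1241 expected counts of MYC and the NMP-L libraries 352, 331 and 366, and the lowest hESC library was thus far above the highest NMP-L library. In TPM, a unit scaled for transcript length and library total, the levels were 55.5 ± 1.45 (SD, n = 3) in hESCs and 14.7 ± 0.247 (SD, n = 3) in NMP-L cells. MYC was 4.05-fold lower in NMP-L cells (log2 fold change −2.02, SE 0.09, edgeR adjusted p = 1.02e-08), and 2.69% of all genes tested fell at least as far. In these bulk libraries, fewer cells with a transcript and less transcript per cell cannot be told apart. The hESC markers moved with MYC (4 of 5 lower, sums of 3680 to 3935 CPM and of 2151 to 2254 CPM), and their part in the result was not tested.

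MYCN, the paralogue named for neuroblastoma, lies at chr2:16080672-16087129 on the plus strand of GRCh37. By TPM it was the highest member in every hESC library. Its counts were 1693, 1781 and 1871 in hESCs, against 619, 540 and 655 in NMP-L cells. The TPM level was 81.2 ± 3.50 (SD, n = 3) in hESCs and 24.9 ± 1.53 (SD, n = 3) in NMP-L cells, again with no overlap. MYCN was 3.46-fold lower (log2 fold change −1.79, SE 0.09, edgeR adjusted p = 1.92e-08), and 3.52% of genes fell at least as far. The antisense gene MYCNOS, which shares 3.56% of the exonic bases of MYCN, had 7 to 16 counts, and CASC11, which shares 3.18% of those of MYC, had 1 to 6 counts. Whether reads were counted by strand is not given in the sources used here, and at these levels both antisense genes were small beside the members they overlap.

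**Figure D2:**
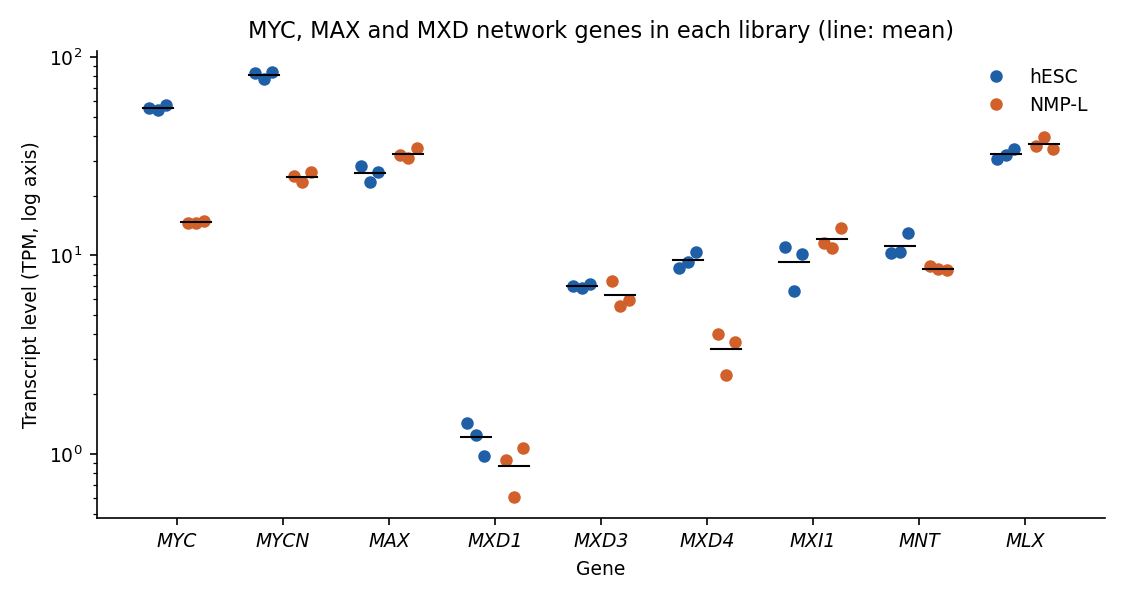
TPM of the 9 members in each of the 6 libraries on a log axis, with points for libraries and a line for the mean of each condition. MYCN and MYC lead in the hESC libraries, whereas MLX and MAX lead in the NMP-L libraries.

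The MYC to MYCN ratio was computed within each library, since the paralogues share function and partner. In TPM the ratio was 0.672, 0.701 and 0.680 in hESCs and 0.580, 0.622 and 0.567 in NMP-L cells. Every hESC library had a higher ratio than every NMP-L library, and MYCN exceeded MYC in all 6 libraries. The mean ratio was 0.684 ± 0.0152 (SD, n = 3) in hESCs and 0.590 ± 0.0285 (SD, n = 3) in NMP-L cells, and the quotient of the NMP-L over the hESC ratio was 0.862, with 0.809 to 0.926 over the 9 pairs of libraries. The difference of −0.22 on the log2 scale had a two-sided exact permutation p of 0.1, the smallest that 3 against 3 can give, so the design could not place it past 0.05. As a share of the counts of both genes, MYC held 40.7%, 40.8% and 39.9% in hESCs and 36.3%, 38.0% and 35.8% in NMP-L cells. The exact 95% binomial (Clopper-Pearson) intervals, which cover counting error only, ran from 38.9% to 42.5%, 39.0% to 42.6% and 38.2% to 41.6% in hESCs and from 33.2% to 39.4%, 34.8% to 41.3% and 32.9% to 38.9% in NMP-L cells. Intervals of the conditions overlapped for all pairs of libraries except those of NMP-L replicate 3 with hESC replicates 1 and 2.

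**Figure D3:**
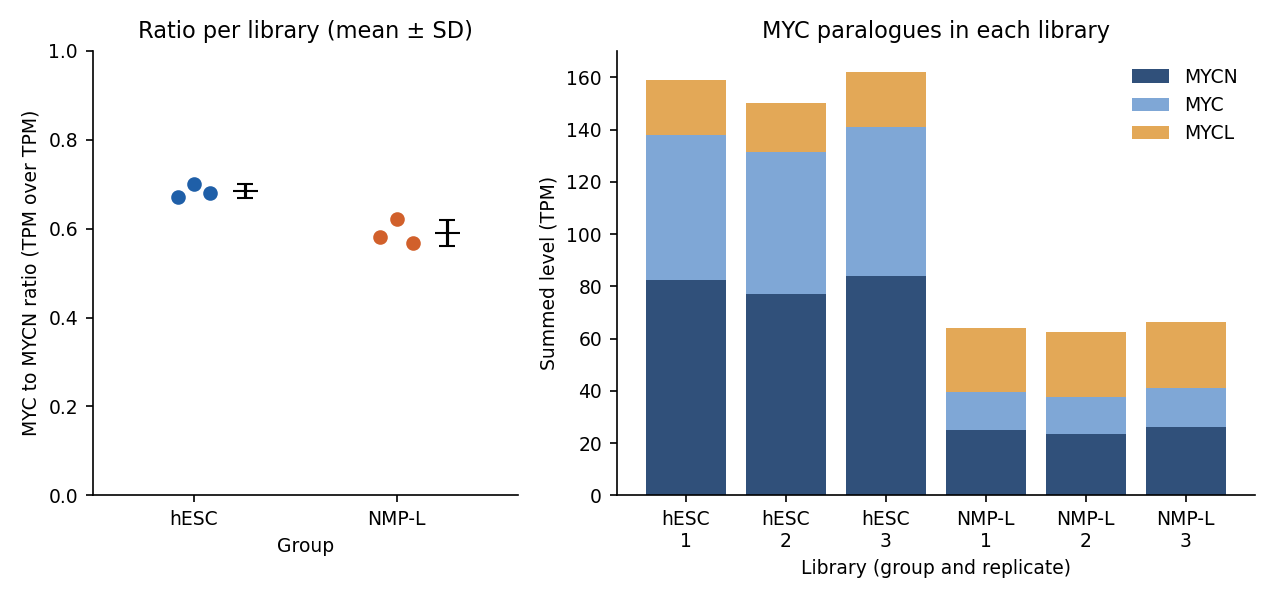
Left, the MYC to MYCN ratio in TPM for each library as points, with the mean and SD of each condition, where the 3 hESC ratios (0.672 to 0.701) sit above the 3 NMP-L ratios (0.567 to 0.622). Right, stacked bars of the TPM of MYC, MYCN and MYCL in each library, whose mean height is 157 TPM in hESCs and 64.3 TPM in NMP-L cells.

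MYCL, the third paralogue, moved the other way from a lower start. It had 590, 566 and 621 counts at day 0, against 836, 777 and 853 at day 3, with TPM levels of 20.5 ± 1.32 and 24.7 ± 0.255 (SD, n = 3 each) and no overlap. Its log2 fold change was 0.24 (SE 0.09, edgeR adjusted p = 0.0385), a call that was lost in 10 of 14 alternatives, over which the adjusted p ran from 0.00914 to 0.129. Among them were the fits without hESC replicate 1, 2 or 3 (0.0634, 0.115 and 0.0633), without NMP-L replicate 1 or 2 (0.0943 and 0.0991), with RLE factors (0.0540), with upper-quartile scaling (0.0696), with DESeq2 (0.0844) and with no filter beyond 1 count (0.0511). The TPM of MYC, MYCN and MYCL together was 157 ± 6.14 (SD, n = 3) in hESCs and 64.3 ± 1.94 (SD, n = 3) in NMP-L cells, a sum chosen after the values were seen. Of this sum, MYCL held 13.0% in hESCs and 38.5% in NMP-L cells, whereas MYC went from 35.3% to 22.8% and MYCN from 51.6% to 38.7%. The levels of MYCL and MYCN were thus close to each other in NMP-L cells, at 24.7 and 24.9 TPM.

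MAX, the obligate partner of all the above, lies at chr14:65472892-65569413 on the minus strand of GRCh37. Its counts were 465, 424 and 449 at day 0, against 640, 583 and 695 at day 3, so that the conditions did not overlap. The TPM level went from 26.0 ± 2.37 to 32.6 ± 2.02 (SD, n = 3 each), and MAX was 1.22-fold higher (log2 fold change 0.29, SE 0.10, edgeR adjusted p = 0.0248). This call was lost in 6 of 14 alternatives, over which the adjusted p ran from 0.00677 to 0.0846. Among them were the fits without hESC replicate 2 (0.0810) or 3 (0.0713), without NMP-L replicate 1 (0.0554) or 3 (0.0546) and with DESeq2 (0.0511). Exons of FNTB and CHURC1-FNTB on the opposite strand share 13.1% and 9.96% of the exonic bases of MAX. FNTB had at most 45.7 counts in hESCs and at least 81.5 in NMP-L cells, and CHURC1-FNTB at most 485 and at least 617. Without the strand setting, it is not known whether reads of the shared bases were counted for MAX. MAX had no fractional counts, which arise where RSEM divides reads between genes. The ratio of MYC plus MYCN to MAX in TPM was 5.27 ± 0.359 (SD, n = 3) in hESCs and 1.21 ± 0.0239 (SD, n = 3) in NMP-L cells. MYCL, at a mean of 20.5 TPM in hESCs and 24.7 TPM in NMP-L cells, is not in this ratio.

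Among the antagonists, MXD4 showed the steepest fall. MXD4 is an MXD family repressor known from differentiating cells, and it lies at chr4:2249159-2263836 on the minus strand of GRCh37. Its counts were 294, 338 and 368 at day 0, against 158, 93 and 145 at day 3, and the conditions did not overlap. The TPM level was 9.43 ± 0.914 in hESCs and 3.39 ± 0.787 in NMP-L cells (SD, n = 3 each). MXD4 was 2.97-fold lower (log2 fold change −1.57, SE 0.16, edgeR adjusted p = 9.09e-06), beside 4.55% of genes that fell at least as far, and so moved in the direction of the activators it opposes.

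MNT, the most widely expressed antagonist, lies at chr17:2287367-2304398 on the minus strand of GRCh37 and can pair with both MAX and MLX. It had 450, 492 and 591 counts at day 0, against 448, 406 and 431 at day 3, and scaled for depth these did not overlap. The TPM level was 11.2 ± 1.54 in hESCs and 8.58 ± 0.229 in NMP-L cells (SD, n = 3 each). The fall was 1.40-fold (log2 fold change −0.48, SE 0.12, edgeR adjusted p = 0.00462).

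The remaining antagonists did not pass the test. MXD1, known from terminally differentiating cells, was the lowest member by TPM in every library, at 1.22 ± 0.226 in hESCs and 0.870 ± 0.236 in NMP-L cells (SD, n = 3 each). It lies at chr2:70124820-70170077 on the plus strand of GRCh37 and had 73, 69 and 52 counts at day 0, against 55, 34 and 64 at day 3. Its log2 fold change was −0.58 (SE 0.23, edgeR adjusted p = 0.0520), and it passed in 5 of 14 alternatives, over which the adjusted p ran from 0.0428 to 0.172. Among these were the fits without hESC replicate 3 (0.0439) and without NMP-L replicate 3 (0.0436). The depth of MXD1 was low, and its conditions overlapped in TPM but not in CPM. SNRNP27, on the same strand, shares 3.73% of the exonic bases of MXD1. It had 521, 439 and 459 counts at day 0, against 574, 559 and 731 at day 3. MXD3, known from cells in S phase, lies at chr5:176728462-176739758 on the minus strand and had 111, 116 and 117 counts at day 0, against 135, 101 and 102 at day 3, with overlap (log2 fold change −0.25, SE 0.16, edgeR adjusted p = 0.197). Of the exonic bases of MXD3, 24.2% are shared with PRELID1 on the opposite strand, which had 2959 to 4212 counts, and 19.5% with RAB24 on the same strand. The values of MXD3 are thus uncertain, although it had no fractional counts. MXI1, which also recruits SIN3, lies at chr10:111967363-112047123 on the plus strand and had 330, 217 and 319 counts at day 0, against 403, 354 and 483 at day 3. Its TPM was 11.0, 6.65 and 10.2 at day 0 and 11.5, 10.9 and 13.7 at day 3, where it was the highest antagonist in each library. The second hESC library was low for this gene, and the conditions overlapped (log2 fold change 0.28, SE 0.16, edgeR adjusted p = 0.156).

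Read as a sum over MXD1, MXD3, MXD4, MXI1 and MNT, the antagonists went from 38.1 ± 3.70 TPM in hESCs to 31.2 ± 2.73 TPM in NMP-L cells (SD, n = 3 each), against 137 ± 4.88 and 39.5 ± 1.75 TPM for MYC plus MYCN. Their ratio to MYC plus MYCN was 0.278, 0.262 and 0.296 over the hESC libraries, against 0.827, 0.742 and 0.795 over the NMP-L libraries. Every NMP-L library was above every hESC library, and the mean ratio was 2.83-fold higher. MYCL is not in this denominator. With MYCL counted in, the summed paralogues fell 2.45-fold rather than 3.46-fold, so the ratio would rise by less. The makeup of the antagonists also differed. MXI1 held 24.1% of their TPM in hESCs and 38.6% in NMP-L cells, MXD4 held 24.8% and 10.8%, and MNT held 29.4% and 27.6%, with overlap between the conditions for MNT alone of these.

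MLX, the hub of the parallel branch, lies at chr17:40719090-40725257 on the plus strand of GRCh37 and was the highest member by mean TPM in NMP-L cells. Its counts were 646, 733 and 761 at day 0, against 867, 907 and 853 at day 3. The log2 fold change was 0.07 (SE 0.10, edgeR adjusted p = 0.566), and CPM overlapped although TPM, at 32.3 ± 1.96 and 36.4 ± 2.51 (SD, n = 3 each), did not. PSMC3IP, on the opposite strand, shares 18.2% of the exonic bases of MLX. It had 249, 307 and 258 counts at day 0, against 483, 448 and 494 at day 3, and its part in the MLX values was not tested. MLXIPL (also called ChREBP), the glucose-sensing partner of MLX, had 113, 162 and 195 counts at day 0, against 618, 350 and 559 at day 3. MLXIPL was 2.76-fold higher (log2 fold change 1.47, SE 0.21, edgeR adjusted p = 1.06e-04), whereas the related MLXIP did not pass (log2 fold change −0.13, SE 0.09, edgeR adjusted p = 0.250). MGA, a MAX partner of the variant PRC1 complex, did not pass either (log2 fold change 0.00, SE 0.11, edgeR adjusted p = 0.974). Of 5 genes known to be driven through MLX, TXNIP and ARRDC4, arrestin family regulators of glucose uptake, rose from 144 to 215 TPM and from 29.4 to 64.3 TPM. PKLR, the liver pyruvate kinase, had 43 counts at most and passed as lower (log2 fold change −0.79, SE 0.30, edgeR adjusted p = 0.0404), a call that was lost in 8 of 14 alternatives. For PKLR the adjusted p was 0.0520 without hESC replicate 1, 0.202 without hESC replicate 3, 0.115 without NMP-L replicate 1 and 0.0995 without NMP-L replicate 3. KLF10 did not pass (log2 fold change −0.06, SE 0.10, edgeR adjusted p = 0.627), and G6PC1 had 0 counts in all libraries.

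The order of the members by TPM changed between the states. In hESCs the order was MYCN, MYC, MLX, MAX, MNT, MXD4, MXI1, MXD3 and MXD1, and neighbours overlapped between libraries for MNT and MXD4, for MXD4 and MXI1, and for MXI1 and MXD3. In NMP-L cells the order was MLX, MAX, MYCN, MYC, MXI1, MNT, MXD3, MXD4 and MXD1, where MLX and MAX alone overlapped. The activators thus stood 1st and 2nd in hESCs and 3rd and 4th in NMP-L cells.

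Genes whose pattern over the 6 libraries was most like that of MYC were found by the smallest root mean square difference of log2 CPM after each gene's own mean was removed, over the 10123 other genes with a mean of at least 10 CPM. The nearest to MYC were CAPN6, MUC3A, ZMAT4, PDLIM1 and HLA-DOA, with differences between 0.0353 and 0.0519. The nearest to MYCN were PHC1, SALL2, PDPN, C14orf132 and TERT, with differences between 0.0365 and 0.0734. MYCN ranked 29th among the neighbours of MYC, and MYC ranked 32nd among those of MYCN. This likeness rests on 6 libraries, in which the difference between the conditions dominates, and describes these libraries only.

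MYC dimers act through histone acetyltransferase and elongation complexes, and MXD dimers through the SIN3 deacetylase complex. Of 14 coactivators, 3 fell and 1 rose, which is 28.6% beside 55.8% of all genes, with a median log2 fold change of −0.08. HCFC1, a host cell factor that docks on MYC, fell by 0.55 (SE 0.09, edgeR adjusted p = 2.02e-04) on the log2 scale. CDK9, the kinase that releases paused polymerase, fell by 0.46 (SE 0.09, edgeR adjusted p = 9.34e-04), and ZBTB17, the MYC partner known as MIZ1, fell by 0.36 (SE 0.14, edgeR adjusted p = 0.0404). The scaffold TRRAP was the 1 that rose (log2 fold change 0.25, SE 0.08, edgeR adjusted p = 0.0186). Without hESC replicate 3 or NMP-L replicate 2 the 4 calls became 2, and TRRAP and ZBTB17 were lost. For TRRAP the adjusted p was 0.0714 without hESC replicate 3, and at most 0.1005 over the 14 alternatives. For ZBTB17 it was 0.152 and 0.161 in these 2 fits. ZBTB17 was also lost without hESC replicate 2 (0.0903) and without NMP-L replicate 3 (0.0722). Of 15 corepressor genes, 3 rose (RBBP7, SUDS3 and BRMS1L) and 4 fell (ING1, SIN3B, SAP30 and SIN3A), which is 46.7%, with a median of −0.02. ING1, a PHD finger subunit, fell by 0.70 (SE 0.11), and SIN3B, a scaffold, fell by 0.60 (SE 0.10), while the histone chaperone RBBP7 rose (log2 fold change 0.39, SE 0.07), each with an edgeR adjusted p of at most 4.48e-04. Without hESC replicate 3 the 7 calls became 4, and SUDS3, BRMS1L and SAP30 each lost their call in 4 to 6 of 14 alternatives.

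Of 19 genes that govern MYC protein stability, 5 were higher (FBXL14, GSK3B, PLK1, BTRC and SKP2) and 5 lower (USP28, STUB1, AXIN1, FBXW7 and HUWE1), with a median of −0.04. The share that passed, 52.6%, was near the 55.8% of all genes, and the 26.3% that fell near 26.7%. SKP2 passed in 4 of 14 alternatives only, and the call was lost without any 1 library but hESC replicate 1. BTRC was lost in 4 and FBXW7 in 3 of 14. FBXL14, an F-box ubiquitin ligase subunit that targets MYC, had 62, 66 and 67 counts at day 0, against 342, 259 and 279 at day 3 (log2 fold change 1.94, SE 0.15, edgeR adjusted p = 7.33e-07). USP28, a deubiquitinase that stabilises MYC, went from 145 to 73.0 TPM (log2 fold change −1.08, SE 0.08, edgeR adjusted p = 4.23e-07). GSK3B, the kinase that marks MYC for FBXW7 and the target of CHIR99021, was higher (log2 fold change 0.56, SE 0.10, edgeR adjusted p = 3.94e-04).

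**Figure D4:**
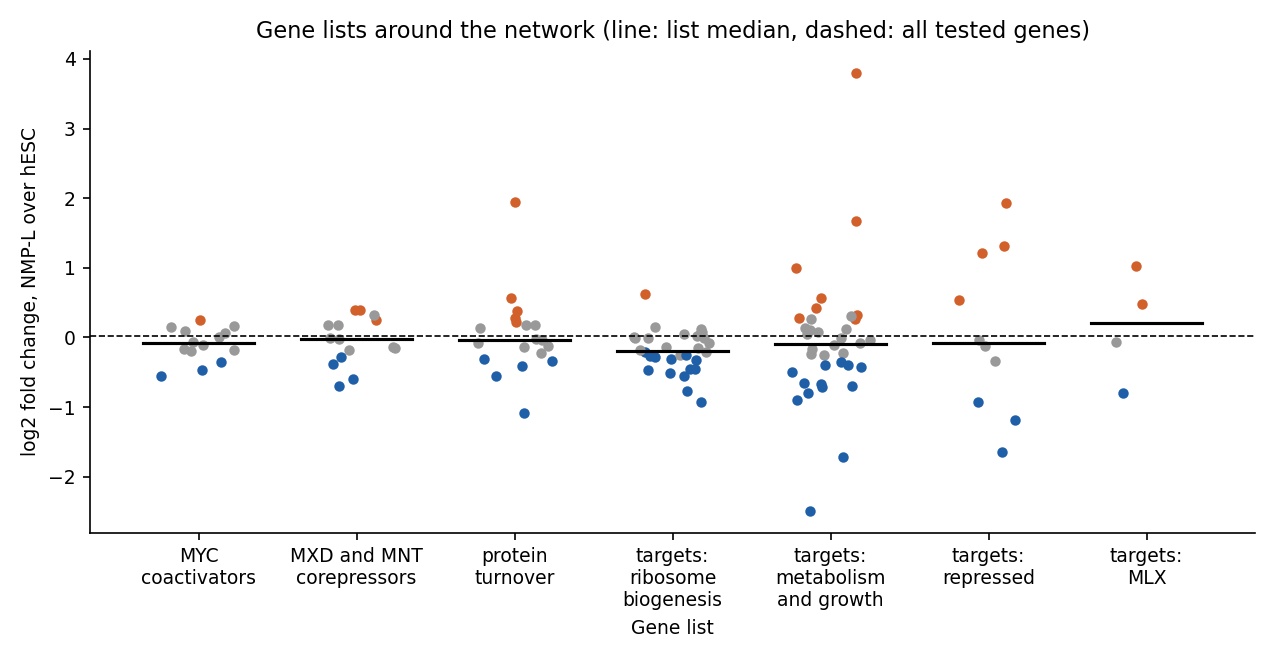
Log2 fold change of every tested gene of 7 lists around the network as points, with a line for each list's median and a dashed line for the median of all genes tested (0.03). Ribosome biogenesis targets have the lowest median (−0.19), and ODC1 at 3.80 and LDHA at −2.49 are the extremes of the metabolism and growth list.

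Textbook MYC targets in ribosome biogenesis leaned towards lower levels, with 13 of 30 lower, 1 higher and 16 not past the test. This is 46.7% past the test and 43.3% lower, beside 55.8% and 26.7% of all genes, with a median log2 fold change of −0.19. The list's median stayed below 0 over the 14 alternatives (−0.22 to −0.09), and the number that fell ran from 8 to 17. With library size only and with the replicate block, 9 genes passed in place of 14, and 8 of the 30 were lower. Of all 15517 genes, 3597 and 3644 were lower in these fits, so the share of the list that fell was only slightly above the background there. With limma on log2(TPM + 1), 8 of the 30 were lower and 3 higher, beside 3421 of all genes lower. BOP1, a factor in large subunit processing, was 59.5 ± 6.46 TPM in hESCs and 33.5 ± 1.21 TPM in NMP-L cells (SD, n = 3 each; log2 fold change −0.93, SE 0.11, edgeR adjusted p = 2.38e-05). FBL, the rRNA methyltransferase fibrillarin, fell from 711 to 448 TPM (log2 fold change −0.76, SE 0.08, edgeR adjusted p = 8.65e-06). The exception was UBTF, a factor for RNA polymerase I, which rose from 52.0 to 85.9 TPM (log2 fold change 0.63, SE 0.08, edgeR adjusted p = 7.14e-05). Nucleolin, NCL, passed as lower (log2 fold change −0.20, SE 0.07, edgeR adjusted p = 0.0238), and nucleophosmin, NPM1, did not pass (log2 fold change −0.15, edgeR adjusted p = 0.0681). The call of NCL was lost without hESC replicate 2 (0.0542), NMP-L replicate 1 (0.0798) or NMP-L replicate 2 (0.0765), and NPM1 passed without NMP-L replicate 3 (0.0429).

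Of 36 targets in metabolism and growth, 13 were lower and 8 higher, with a median of −0.09, which ran from −0.16 to 0.01 over the alternatives. The share that passed, 58.3%, was near the 55.8% of all genes. The largest change of the list was a rise. ODC1, the rate-limiting enzyme of polyamine synthesis, had 954, 974 and 951 counts at day 0, against 15543, 15517 and 15932 at day 3 (log2 fold change 3.80, SE 0.08, edgeR adjusted p = 1.14e-10). LDHA, which makes lactate from pyruvate, had 28941, 22168 and 28900 counts at day 0, against 5957, 4692 and 6105 at day 3 (log2 fold change −2.49, SE 0.12, edgeR adjusted p = 1.85e-08). TERT, the catalytic subunit of telomerase, had 315, 351 and 344 counts at day 0, against 125, 100 and 137 at day 3 (log2 fold change −1.71, SE 0.12, edgeR adjusted p = 4.33e-07). The 3 genes thus moved in different directions.

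Genes known to be repressed by MYC, most of them brakes on the cell cycle or on growth, had 4 of 10 tested genes higher (CEBPA, CDKN1A, GADD45A and CDKN1B) and 3 lower (GADD45B, NDRG2 and THBS1), that is 70.0% past the test and 30.0% lower, beside 55.8% and 26.7% of all genes, with a median of −0.08. The cyclin-dependent kinase inhibitor CDKN1A had 523, 519 and 636 counts at day 0, against 1653, 1601 and 1630 at day 3 (log2 fold change 1.32, SE 0.10, edgeR adjusted p = 9.98e-07). CEBPA, a differentiation factor, rose by more, from 2.81 to 11.5 TPM (log2 fold change 1.93, SE 0.14, edgeR adjusted p = 4.77e-07). Of the growth arrest genes, GADD45A rose (log2 fold change 1.21, SE 0.12, edgeR adjusted p = 6.46e-06), whereas GADD45B fell by 1.64 (SE 0.15, edgeR adjusted p = 4.12e-06).

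**Figure D5:**
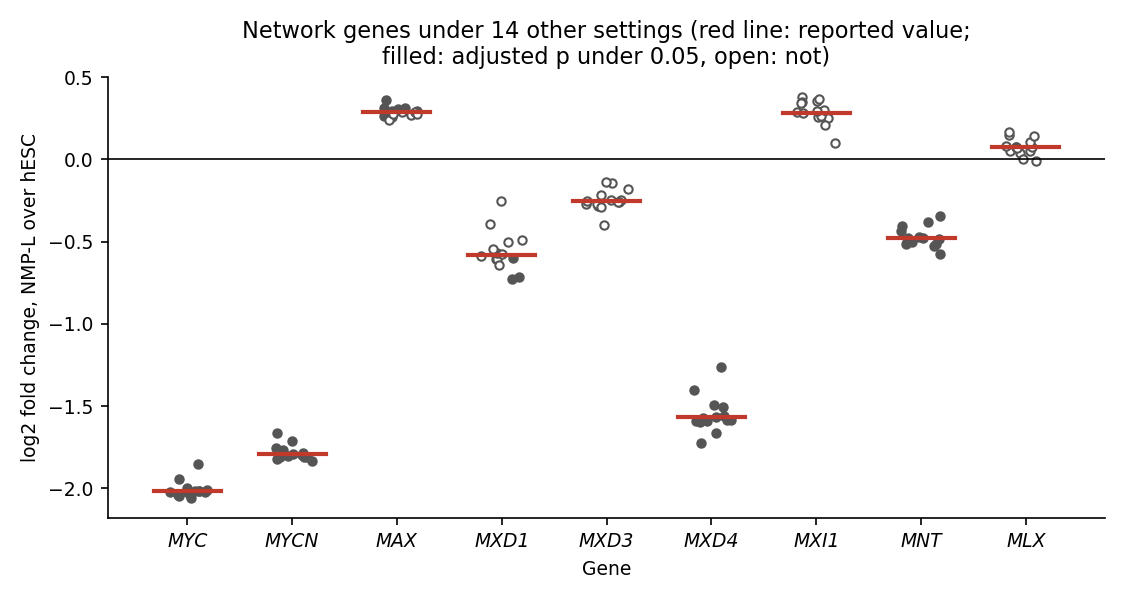
Log2 fold change of each member as reported (red line) and under each of the 14 alternatives (points, filled where the adjusted p was under 0.05). MYC, MYCN, MXD4 and MNT kept the same call throughout. MAX and MXD1 kept their sign but crossed the adjusted p threshold in some alternatives, and MLX lay near 0.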

How the data were processed

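RNA was extracted with a column kit, and libraries were prepared from polyadenylated RNA and sequenced as single-end reads of 76 bp. Per the submitters' processing notes, cutadapt 1.9.1, STAR 2.5.2a, RSEM 1.3.0 and DESeq2 1.12.3 were used on hg19. The annotation and the strand setting are not given in the sources used here. Expected counts from RSEM were deposited by the authors per gene, not normalized between libraries, together with deposited TPM values, scaled for effective transcript length and library total. RSEM divides reads shared by similar genes by their estimated origin, and 8.44% of genes but 0 of the 9 members had fractional counts.

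Expected counts were rounded and tested with edgeR 4.0.16 in R 4.3.3 (filterByExpr with a minimum count of 10, TMM, glmQLFit and glmQLFTest, condition as the only term, adjusted p under 0.05 over 15517 genes). Standard errors (SE) were taken as |log2 fold change| over the root of the F value. TPM was used for levels compared between genes and for ratios. Exact permutation tests used log2 ratios or log2 CPM with a pseudocount of 0.1. CPM was scaled to library totals after TMM adjustment. A floor of 3 counts equals 0.130 to 0.154 CPM without that adjustment. The fit was tested on simulated data, and figures were drawn with matplotlib 3.10.9 in Python 3.11.15. All 167 listed symbols were found, 4 through an older symbol, and 0 columns of per-sample values were left unused.

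The members, lists and tests were chosen with earlier results of these data known. The text names all members, all genes of the list of further network genes and of the MLX target list, and from each other list the 3 genes past the threshold with the largest change, no overlap and a mean of 10 CPM or more in whichever condition was higher, plus the 5 genes most like MYC and like MYCN. Marker genes serve as a check of the labels. Other list genes, genes that overlap members, the sum of 3 MYC paralogues, and the promoter motifs with the windows shown were chosen after values were seen. Gene positions come from GENCODE release 44 lifted to GRCh37, since the files hold no coordinates.

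Alternatives were RLE and upper-quartile scaling, library size only, DESeq2 1.42.0, 10 counts or more required in each library, only 1 count required in total, the replicate number as a block, limma 3.58.1 on log2(TPM + 1), and leaving out each of 6 libraries. No sequencing batch is named in the labels, so none was modelled.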

Additional observations from a re-analysis of the deposited data

How the results depend on the processing

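MYC, MYCN, MXD4 and MNT were called lower under all 14 alternatives, with log2 fold changes of −2.06 to −1.85, −1.84 to −1.67, −1.72 to −1.26 and −0.58 to −0.34. The number of members past the threshold was 4 to 6 against 5, and all genes gave 7255 to 9048 calls against 8653. MLX reversed to −0.00739 without hESC replicate 1, in a range up to 0.143 when libraries were left out. MGA reversed to −0.0173 with RLE factors, −0.0255 with upper-quartile scaling and −0.0160 with DESeq2, and ran from −0.0935 (without hESC replicate 2) to 0.0569 when libraries were left out, also reversing without NMP-L replicate 2. KLF10 reversed to 0.0176 with library size only and 0.0449 with limma. Counts of calls in 4 lists moved by over 1.5 times. The further network genes had 1 call in place of 2 with RLE factors, upper-quartile scaling, DESeq2, no filter and the replicate block, and 1 to 2 when libraries were left out. The coactivators had 2 in place of 4 with the replicate block, and 2 to 6 when libraries were left out. The corepressors had 4 to 7 in place of 7 when libraries were left out, with 4 without hESC replicate 3. The ribosome biogenesis targets had 9 in place of 14 with library size only and with the replicate block. The cause of these moves was not tested. Replicate numbers are shared by label only: the deviations of same-numbered libraries correlated at −0.37, −0.06 and −0.13, so the numbers were not taken as pairs. Under the block the calls of MAX, MYCL and PKLR were among those lost (edgeR adjusted p = 0.0846, 0.129 and 0.0659). The block gave 7560 calls in all. It cannot move the MYC to MYCN ratio difference of −0.22, because each replicate number occurs once in each condition. That difference was −0.23 with expected counts and −0.25 to −0.19 when libraries were left out, where the smallest two-sided exact permutation p is 0.2. Library size only and limma moved the median of all genes from 0.03 to 0.10 and 0.11. The medians of the coactivators, corepressors, protein turnover genes and repressed targets also changed sign under some alternatives, reaching 0.01, 0.08, 0.06 and 0.09. Depth limits MXD1, which had 73 counts at most.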

Other observations

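In the promoter windows, the E-box CACGTG was found in 10 of 23 ribosome biogenesis genes (43.5%) and 16 of 32 metabolism and growth genes (50%). All genes with a window, tested for expression or not, gave 8.77%. Other lists carried it too, in 3 of 8 coactivators (37.5%), 4 of 13 protein turnover genes (30.8%), 2 of 8 repressed targets (25%) and 2 of 4 MLX targets (50%). It was found in 1 of 14 corepressors (7.14%) and 0 of 4 further network genes. The median log2 fold change was −0.26 for ribosome biogenesis genes with the E-box and −0.21 for those without it, and −0.01 and −0.19 in the metabolism and growth list. These medians are given as a description without a test.

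SLC7A5 and SLC3A2, which encode the light and heavy chains of an amino acid transporter, were chosen after their values were seen. SLC7A5 had 2789, 4104 and 3123 counts at day 0, against 12708, 12136 and 12604 at day 3 (log2 fold change 1.68, SE 0.12, edgeR adjusted p = 3.58e-07). SLC3A2 had 3277, 4047 and 3571 counts at day 0, against 8624, 8318 and 8434 at day 3 (log2 fold change 1.00, SE 0.09, edgeR adjusted p = 2.01e-06). The glycolytic enzymes HK2 and ENO1 fell, as LDHA did, with log2 fold changes of −0.70 (SE 0.10) and −0.80 (SE 0.08), whereas the glucose transporter SLC2A1 rose (log2 fold change 0.33, SE 0.11, edgeR adjusted p = 0.0220, lost without NMP-L replicate 1 at 0.0527 and without NMP-L replicate 2 at 0.0635). Of the folate cycle enzymes, SHMT1 and SHMT2 also rose, by log2 fold changes of 0.57 (SE 0.09) and 0.43 (SE 0.09).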
